A study of Mus musculus with 586 samples.

Results

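A set of 33 genes of protein uptake and lysosomal breakdown was followed through the mouse embryo around gastrulation. They were taken by name: 4 genes of the uptake machinery (Cubn, Amn, Lrp2, Dab2), 9 lysosomal proteases and peptidases (Ctsa, Ctsb, Ctsc, Ctsd, Ctsh, Ctsl, Ctsz, Lgmn, Tpp1), 6 glycosidases (Hexa, Gla, Glb1, Gusb, Neu1, Man2b1), 5 genes of lipid handling (Npc1, Npc2, Lipa, Psap, Asah1), 6 genes of membrane proteins and progranulin (Lamp1, Lamp2, Cd63, Scarb2, Mcoln1, Grn) and 3 parts of the proton pump (Atp6v0d1, Atp6v1h, Atp6ap1). All 33 were rows of each of the 18 tables, which list 23361 genes.

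The values come from Geo-seq, a method that sequences RNA from small patches of cells dissected by laser out of frozen sections, so that the place of each patch is kept. All embryos were C57BL/6, and the labels give no mutation or treatment. Of 586 samples, 473 were matched to a column of values, from 18 embryos: 2 embryos of E5.5 with 22 libraries, 2 of E6.0 with 22, 6 of E6.5 with 109, 2 of E7.0 with 101 and 6 of E7.5 with 219. The labels give region codes only, which were given the meaning they have in the published atlas, with section 1 at the distal tip. EA and EP are the anterior and posterior endoderm, the cell layer on the outside of the embryo; they were cut in E6.5 embryos 5 and 6, E7.0 embryos 1 and 2 and E7.5 embryos 5 and 6. VE is visceral endoderm, labelled as such in E6.0 embryo 2. M is mesoderm at E7.0 (embryos 1 and 2), and MA and MP its anterior and posterior parts at E7.5 (embryos 5 and 6). P and A are the posterior and anterior sides of the epiblast, the inner layer that gives rise to the body; the primitive streak forms on the P side. A was used from 18 embryos and P from 16. The embryo is the replicate throughout.

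Before and during gastrulation the visceral endoderm covers the epiblast and takes up maternal proteins, lipids and iron from its outer face. Cubilin (Cubn) is a large peripheral receptor that is carried to the apical membrane by amnionless (Amn), megalin (Lrp2) is a giant transmembrane receptor that works with it, and Dab2 is the adaptor that links the tails of such receptors to clathrin. What is taken up passes through endosomes into lysosomes, which the V-type proton pump acidifies and in which cathepsins, glycosidases and lipases degrade it. Many lysosomal genes carry a CLEAR element, built on the E-box CACGTG, which is bound by the factors TFEB and TFE3.

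Promoters are printed for 5 genes that stand for the range of this element among the members and that differ in their pattern below. RefSeq promoters (GRCm38.p6, 250 bases before to 50 after the start, 300 bases in all) matched 28 of the 33 members with 32 promoters. The E-box CACGTG, which reads the same on both strands, is in capitals. Cubn and Amn were both high in endoderm, Lamp1 was higher there by less, Mcoln1 was not called between endoderm and epiblast, and Gla was lower in endoderm. Positions are chr2:13491827-13492126 on the minus strand for Cubn, chr12:111270846-111271145 on the plus strand for Amn, chr8:13158911-13159210 and chr8:3500269-3500568 on the plus strand for Lamp1 and Mcoln1, and chrX:134600956-134601255 on the minus strand for Gla.
Cubn: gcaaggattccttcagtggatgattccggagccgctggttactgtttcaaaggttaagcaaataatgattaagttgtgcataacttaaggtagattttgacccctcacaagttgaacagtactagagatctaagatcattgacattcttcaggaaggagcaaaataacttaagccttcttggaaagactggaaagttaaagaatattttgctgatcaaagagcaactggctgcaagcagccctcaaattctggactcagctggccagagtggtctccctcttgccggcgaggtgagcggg
Amn: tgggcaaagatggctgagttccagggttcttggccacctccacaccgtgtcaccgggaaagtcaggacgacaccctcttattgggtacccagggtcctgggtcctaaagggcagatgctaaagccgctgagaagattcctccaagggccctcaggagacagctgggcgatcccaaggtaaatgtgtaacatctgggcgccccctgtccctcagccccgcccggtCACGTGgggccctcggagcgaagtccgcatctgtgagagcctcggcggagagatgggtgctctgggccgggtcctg
Lamp1: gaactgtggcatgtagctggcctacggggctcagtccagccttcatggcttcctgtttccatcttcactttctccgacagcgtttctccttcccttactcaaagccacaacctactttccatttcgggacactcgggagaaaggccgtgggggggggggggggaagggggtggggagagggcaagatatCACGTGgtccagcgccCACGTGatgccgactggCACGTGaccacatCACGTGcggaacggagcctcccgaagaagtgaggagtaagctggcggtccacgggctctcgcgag
Mcoln1: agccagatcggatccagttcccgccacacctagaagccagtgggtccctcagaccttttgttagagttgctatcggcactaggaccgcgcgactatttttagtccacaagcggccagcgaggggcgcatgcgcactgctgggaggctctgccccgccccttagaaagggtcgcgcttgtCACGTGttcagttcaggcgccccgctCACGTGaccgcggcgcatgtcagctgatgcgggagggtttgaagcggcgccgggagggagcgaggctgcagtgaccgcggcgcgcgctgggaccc
Gla: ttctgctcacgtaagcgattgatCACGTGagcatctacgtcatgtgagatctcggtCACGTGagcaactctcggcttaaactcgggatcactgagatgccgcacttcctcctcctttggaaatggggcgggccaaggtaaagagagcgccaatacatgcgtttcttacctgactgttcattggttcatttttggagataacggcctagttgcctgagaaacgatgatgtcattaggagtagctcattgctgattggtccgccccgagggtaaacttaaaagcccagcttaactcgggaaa

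Lamp1 holds 4 E-boxes between 61 and 15 bases before its start, Mcoln1 and Gla hold 2 each, Amn holds 1 at 26 bases before its start, and no CACGTG is in the Cubn window. Of the 32 member promoters 10 hold CACGTG (31.2%), against 7.15% of the 32851 promoters of this table. The longer palindrome TCACGTGA, which contains the E-box, is in 5 (15.6%) against 0.974%. AGATAA or TGATAA, the letters that GATA factors bind, are in 6 (18.8%) against 18.6%, counted on both strands. Of members higher in endoderm than in epiblast, 6 of the 14 with a promoter hold an E-box, of those lower 1 of 5, and of those not called 3 of 9. These are letters in a window, and no binding was measured.

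Values are FPKM as deposited, compared on the log2(FPKM + 1) scale, which understates the change of low genes. Regions of the same section were subtracted and averaged within the embryo, and the embryo values were tested with limma across all genes whose mean was at least 1 FPKM in some stage. A gene was called at a Benjamini-Hochberg adjusted p under 0.05 over all genes tested, and SE is the moderated standard error. The number of genes at 1 FPKM or more ran from 2683 to 11319 per library (median 8949), and 26 of 473 were poor by having under 5000 such genes or over 50% of their sum in 1 gene. Of these poor libraries 9 were among the 28 of E6.5 endoderm. Rough depth, read from the FPKM worth of 1 read, was 1410000 to 8910000 reads for the embryos' median libraries.

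Endoderm was compared with epiblast in the 26 sections that held EA, EP, A and P, in 6 embryos and 104 libraries. Of the uptake genes 3 of 4 were higher in endoderm (the receptor genes Cubn and Amn and the adaptor Dab2), and of the proteases 6 of 9 (Ctsh, Lgmn, Ctsc, Ctsl, Ctsb and Ctsz). Genes of the lysosomal membrane and of lipid handling were mixed, with Cd63 much higher in endoderm and Psap and Grn lower. The glycosidases were split, with Neu1 higher and Gusb and Gla lower. Of the 33 members 17 were higher in endoderm and 5 lower, where 10.6% of the 10332 genes tested were higher and 58.2% lower. The median difference was 0.40 over the members and -0.47 over all genes tested.

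**Figure D1:**
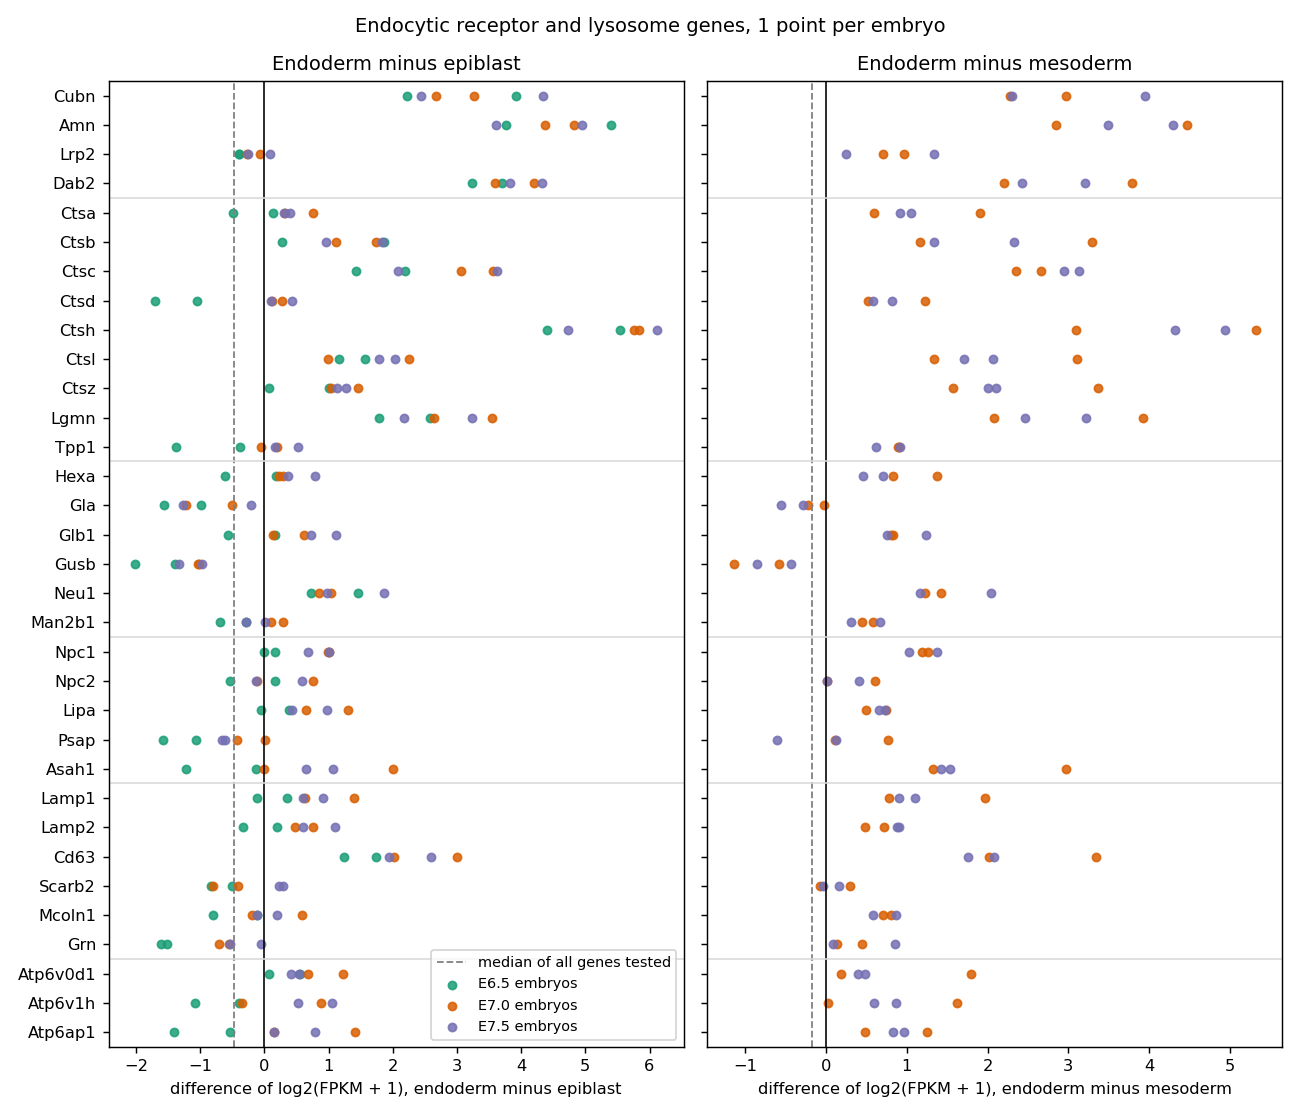
Difference of log2(FPKM + 1) for the 33 members grouped by role, endoderm minus epiblast in 6 embryos (left) and endoderm minus mesoderm in 4 embryos (right); each point is 1 embryo, coloured by stage, and the dashed line is the median of all genes tested (-0.47 left, -0.17 right). On the left Cubn lies between 2.22 and 4.34 and Ctsh between 4.40 and 6.12, while Gla, Gusb and Grn lie below 0 in 6 of 6 embryos.

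Among the uptake genes, Cubn (chr2:13276338-13491813, minus strand, GRCm38) had 6.41, 24.8 and 44.0 FPKM as lowest, median and highest endoderm embryo, against 0.0491, 0.0748 and 0.205 FPKM in epiblast. Amn (chr12:111271095-111276426, plus strand) had 23.2, 58.7 and 94.5 FPKM in endoderm, against 0.0271, 0.654 and 0.933 FPKM in epiblast. Dab2 (chr15:6299788-6440712, plus strand) had 34.1, 66.3 and 109 FPKM in endoderm, against 0.602, 1.84 and 5.24 FPKM in epiblast. For these 3 genes the lowest endoderm embryo stood above the highest epiblast embryo. The log2 differences were 4.49 ± 0.22 for Amn (SE, n = 6 embryos; adjusted p = 9.28e-11), 3.81 ± 0.16 for Dab2 (adjusted p = 5.19e-15) and 3.14 ± 0.28 for Cubn (adjusted p = 6.57e-06), each higher in 6 of 6 embryos. Lrp2 (chr2:69424340-69586065, minus strand) was the exception. It had 0.771, 0.926 and 2.40 FPKM in endoderm, against 0.968, 1.51 and 2.54 FPKM in epiblast, and the groups overlapped. Its log2 difference was -0.22 ± 0.15 (adjusted p = 0.201), lower in 5 of 6 embryos, and the test did not call it in either direction. With P alone as the epiblast it was called higher in endoderm, at 0.46 (adjusted p = 0.0219) in the same sections and 0.52 (adjusted p = 0.00279) in all sections with EA, EP and P, and P and A are compared for this gene below. Of 19 alternatives 1 called Lrp2 lower in endoderm, and its differences ran from -0.58 to 0.52.

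Of the 9 proteases 6 were higher in endoderm and none was lower. Ctsh, a cysteine protease with aminopeptidase activity, had 44.7, 102 and 190 FPKM in endoderm, against 0.177, 0.531 and 2.33 FPKM in epiblast, and its log2 difference of 5.40 ± 0.19 (adjusted p = 4.81e-15) was the largest of the 33. Lgmn, which cleaves after asparagine, had 18.8, 72.2 and 153 FPKM in endoderm, against 3.99, 7.55 and 10.3 FPKM in epiblast (2.66 ± 0.18, adjusted p = 9.52e-11). Ctsc, which activates serine proteases by trimming dipeptides, had 18.8, 61.5 and 127 FPKM in endoderm, against 5.45, 7.33 and 8.83 FPKM in epiblast (2.65 ± 0.19, adjusted p = 3.3e-10). The groups did not overlap for these 3 genes. Ctsl, an endopeptidase, was abundant on both sides, with 103, 231 and 532 FPKM in endoderm, against 35.4, 57.0 and 95.6 FPKM in epiblast (1.63 ± 0.16, adjusted p = 1.44e-08). Ctsb had 13.3, 43.2 and 84.8 FPKM in endoderm, against 4.73, 8.98 and 12.8 FPKM in epiblast (1.30 ± 0.19, adjusted p = 8.86e-06). For Ctsz, a carboxypeptidase, the log2 difference was 1.00 ± 0.15 (adjusted p = 6.61e-06, higher in 6 of 6 embryos). It fell to 0.33 (adjusted p = 0.16) without the most proximal section used in each embryo. The aspartic protease Ctsd (-0.30), the protective protein Ctsa (0.24) and the tripeptidyl peptidase Tpp1 (-0.15) were not called. Of 20 alternatives 3 called Ctsd lower, 5 called Ctsa higher and 1 called Tpp1 lower. The differences of Ctsd ran from -0.56 to 0.41.

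Of the 6 glycosidases 2 were higher and 2 lower. The sialidase Neu1 had 3.63, 6.14 and 9.44 FPKM in endoderm, against 1.09, 1.40 and 3.06 FPKM in epiblast (1.16 ± 0.17, adjusted p = 2.92e-06). Gusb, the beta-glucuronidase, had 1.90, 4.01 and 5.03 FPKM in endoderm, against 5.17, 9.25 and 11.7 FPKM in epiblast, with a log2 difference of -1.29 ± 0.16 (adjusted p = 2.6e-07). For both genes the groups did not overlap, in opposite directions. Gla, the alpha-galactosidase A, had 1.24, 2.32 and 4.34 FPKM in endoderm, against 3.78, 5.15 and 7.93 FPKM in epiblast, and was lower in 6 of 6 embryos (-0.96 ± 0.17, adjusted p = 4.59e-05). Glb1, the beta-galactosidase, was called higher at 0.37 ± 0.16 (adjusted p = 0.0479, 5 of 6 embryos), and the call ended without any 1 of E6.5 embryo 6 (0.24), E7.0 embryo 2 (0.29) or E7.5 embryo 6 (0.30). Hexa (0.21) and Man2b1 (-0.14) were not called.

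Among the 5 lipid genes, Npc1, which moves cholesterol out of the lysosome, was higher at 0.64 ± 0.15 (adjusted p = 0.000844, 5 of 6 embryos) and Lipa, the acid lipase, at 0.62 ± 0.16 (adjusted p = 0.00198, 5 of 6 embryos). Psap, the precursor of the saposins that present sphingolipids to their hydrolases, had 2.77, 13.8 and 24.3 FPKM in endoderm, against 8.88, 19.9 and 31.1 FPKM in epiblast (-0.72 ± 0.15, adjusted p = 0.000278, lower in 5 of 6). The Psap call ended at equal medians (-0.15, adjusted p = 0.482), without both E6.5 embryos (-0.42, adjusted p = 0.0702) and at equal sums without poor libraries (-0.22, adjusted p = 0.272). The Npc1 call ended without the most proximal section used in each embryo (0.25, adjusted p = 0.252). Npc2 (0.12) and the ceramidase Asah1 (0.40) were not called; without E7.0 embryo 2 Asah1 was called at 0.73 (adjusted p = 0.0013) and without E6.5 embryo 5 at 0.58 (adjusted p = 0.0479).

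Of the 6 genes of membrane proteins and progranulin 3 were higher and 2 lower. Cd63, a tetraspanin of late endosomes, had 77.1, 269.8 and 441 FPKM in endoderm, against 27.8, 51.7 and 76.0 FPKM in epiblast, with no overlap (2.09 ± 0.16, adjusted p = 2.12e-10). Lamp1 and Lamp2, the main glycoproteins of the lysosomal membrane, were higher by 0.63 ± 0.15 (adjusted p = 0.00105) and 0.47 ± 0.16 (adjusted p = 0.0125), each in 5 of 6 embryos. The Lamp2 call ended without E6.5 embryo 6 (0.38) and without E7.5 embryo 6 (0.38). Without the most proximal section used in each embryo neither Lamp1 (0.31, adjusted p = 0.167) nor Lamp2 (0.051, adjusted p = 0.838) was called. Grn, the secreted growth factor progranulin that is also routed to lysosomes, was lower in 6 of 6 embryos (-0.83 ± 0.15, adjusted p = 5.89e-05), and not called without both E6.5 embryos (-0.47, adjusted p = 0.0556). Scarb2, the carrier of beta-glucocerebrosidase, was near the detection limit, at 0.867 ± 0.596 FPKM in endoderm and 1.25 ± 0.607 FPKM in epiblast (SD, n = 6 each), and its call (-0.34 ± 0.15, adjusted p = 0.0478) ended without any 1 of 5 embryos, with differences of -0.27 to -0.39. Mcoln1, the calcium channel of the lysosomal membrane, was not called (-0.07). Of the proton pump genes, the membrane-sector subunit Atp6v0d1 was higher at 0.58 ± 0.16 (adjusted p = 0.00227, 6 of 6 embryos) but not without the most proximal section used (0.26, adjusted p = 0.276). Atp6v1h (0.11) and the accessory protein Atp6ap1 (0.09) were not called.

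Endoderm libraries had fewer detected genes in the E6.5 embryos: medians of 5192 and 6903 genes in endoderm, against 7982 and 9531 in epiblast. The medians were 8329 and 9054 against 8151 and 9716 at E7.0, and 9260 and 9058 against 9351 and 9456 at E7.5. The part of detection in the differences was not tested. Rescaling each library to the same sum gave 18 members higher and 4 lower, with a median over all genes of -0.25, and rescaling to the same median gave 23 and 3, with a median of -0.06. The share of higher genes among all called genes was 15.5% with FPKM as deposited, 23.6% at equal sums and 41.6% at equal medians. Under every alternative in which the gene was tested 12 calls were kept: Cubn, Amn, Dab2, Ctsb, Ctsc, Ctsh, Ctsl, Lgmn, Neu1 and Cd63 higher and Gla and Gusb lower. Without the most proximal section used in each embryo 11 members were higher and 7 lower. The most distal section used was kept in this setting.

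The endoderm libraries were checked against markers. All 20 visceral endoderm markers were higher in endoderm than in epiblast, among them Ttr (567 ± 372 FPKM in endoderm and 2.74 ± 2.44 in epiblast, SD, n = 6 each) and Apoa1 (964 ± 575 and 3.18 ± 3.17). The 10 epiblast markers were all lower. Definitive endoderm markers were higher in 8 of 10, with Sox17 at 10.2 ± 6.40 FPKM in endoderm and 0.215 ± 0.160 in epiblast. At E6.5 alone 5 of them (Cer1, Foxa2, Gsc, Hhex and Sox17) were already higher and 2 (Epcam and Trh) lower. Whether both endoderm types were present was not tested. All 9 parietal endoderm markers and all 5 tested markers of maternal blood and decidua were also higher, and the summed level of the blood and decidua markers, led by globins, had an embryo mean of 181 to 14008 FPKM in endoderm, against 47.5 to 926 FPKM in the epiblast of the same embryos. Leukocyte markers, which matter because macrophages are rich in cathepsins, summed to 0 to 33.4 FPKM per endoderm library over 9 genes, with C1qa and Aif1 at 0 in all of them, and 1 (Fcer1g) passed the filter and was higher (1.04 ± 1.26 FPKM in endoderm and 0.193 ± 0.298 in epiblast). The part of parietal endoderm, blood and decidua in the members' values was not tested. In bulk samples like these, fewer cells of a type and less RNA per cell cannot be told apart.

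**Figure D2:**
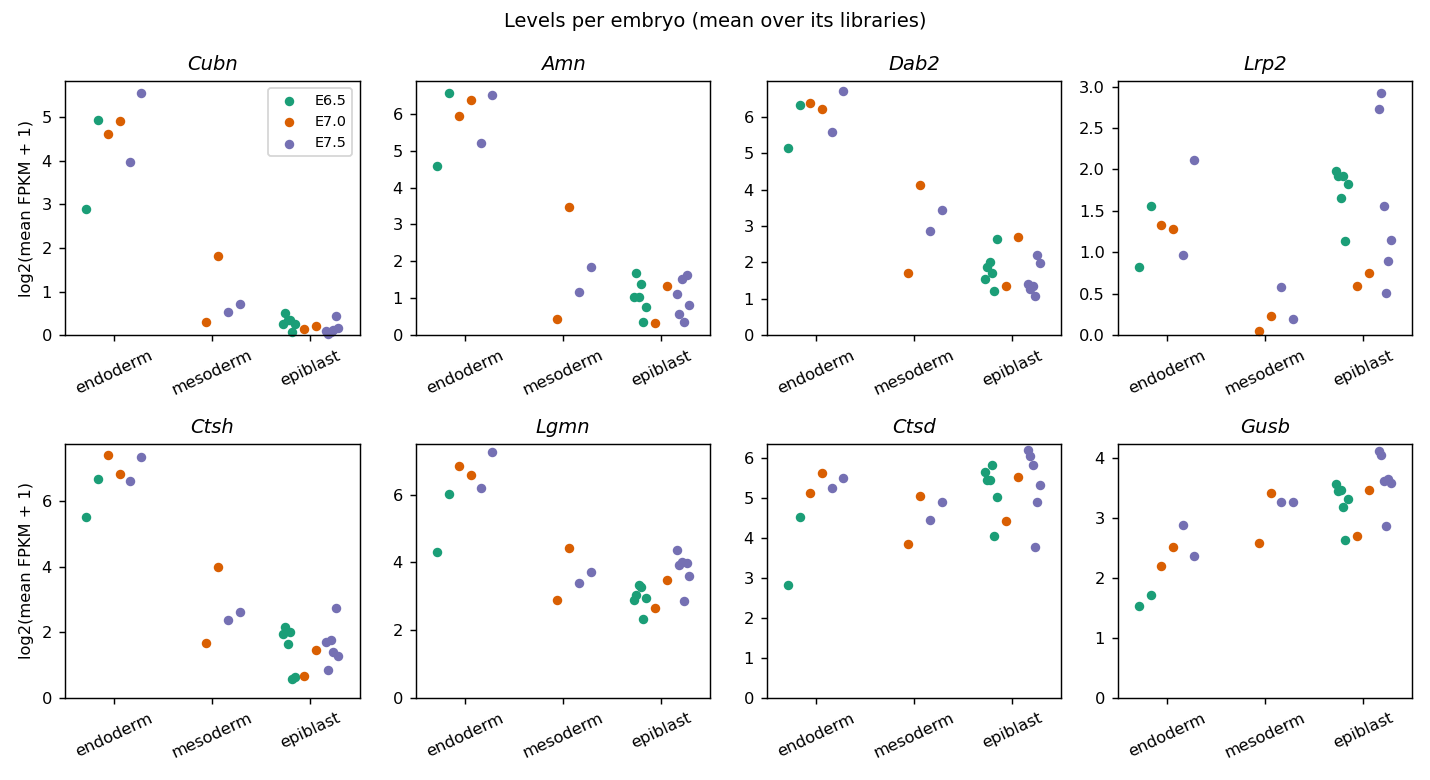
Level of 8 members in endoderm, mesoderm and epiblast as log2 of the mean FPKM + 1; each point is 1 embryo, coloured by stage (E6.5, E7.0 or E7.5), over all its libraries of that tissue. Endoderm points lie above mesoderm and epiblast points for Cubn, Amn, Dab2 and Ctsh, whereas for Ctsd the tissues overlap and for Lrp2 epiblast spans the endoderm range. Epiblast points pool A and P libraries, whose shares differ between embryos, and E7.5 embryos 1 and 2 have A only.

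The difference between endoderm and epiblast was also taken stage by stage, with 2 embryos at each. At E6.5, 10 members were higher and 9 lower, beside 3.80% higher and 62.0% lower among all genes tested. At E7.0, 15 were higher and 2 lower (8.35% and 27.3% of all genes), and at E7.5, 14 were higher and 1 lower (8.80% and 10.3%). At equal sums 13 members were higher and 4 lower at E6.5, 15 higher and 0 lower at E7.0, and 10 higher and 1 lower at E7.5. At equal medians these counts were 16 and 3, 18 and 0, and 14 and 1. At each of the 3 stages 10 genes were higher: Cubn, Amn, Dab2, Ctsb, Ctsc, Ctsh, Ctsl, Lgmn, Neu1 and Cd63. Gusb was lower at each, but at E7.0 its call ended at equal sums and at equal medians. The share of higher genes among all called genes was 5.78% at E6.5, 23.5% at E7.0 and 46.0% at E7.5, against 15.1%, 36.4% and 54.0% at equal sums. In the test of the change itself, E7.5 minus E6.5, 7 members passed and all went up: Ctsd (1.64 ± 0.38, adjusted p = 0.00254), Atp6v1h (1.52 ± 0.43, adjusted p = 0.00963), Atp6ap1 (1.44 ± 0.44, adjusted p = 0.0166), Grn (1.26 ± 0.38, adjusted p = 0.0132), Tpp1 (1.23 ± 0.40, adjusted p = 0.0216), Glb1 (1.12 ± 0.40, adjusted p = 0.0313) and Scarb2 (0.93 ± 0.36, adjusted p = 0.049). Ctsd had 31.6 and 47.7 FPKM in endoderm against 24.0 and 41.7 FPKM in epiblast at E7.5, and 6.11 and 22.2 FPKM in endoderm against 15.7 and 31.7 FPKM in epiblast at E6.5. In the same test 36.7% of all genes went up and 0.319% down, and the median over all genes (0.78) was above that of the members (0.61). At equal sums no member passed and at equal medians 1 did (Amn, downward), with 96.1% and 87.8% of all called genes going up, against 99.1% with FPKM as deposited. The low number of detected genes in E6.5 endoderm, given above, moves with this change, and its part in it was not tested. Without E7.5 embryo 5 the count was 2 and without E6.5 embryo 5 or E7.5 embryo 6 it was 3.

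Endoderm was set against mesoderm in 4 embryos, 38 sections and 132 libraries at E7.0 and E7.5. Nearly the whole set was higher in endoderm here: all 4 uptake genes, 9 of 9 proteases, 4 of 6 glycosidases, 3 of 5 lipid genes, 4 of 6 membrane genes and 2 of 3 pump genes. In all, 26 of 33 were higher and 1 (Gusb) lower, beside 14.5% higher and 24.9% lower among the 9910 genes tested. The median difference was 0.88 over the members and -0.17 over all genes. Cubn had 23.6, 29.0, 14.6 and 46.1 FPKM in endoderm (E7.0 embryos 1 and 2, E7.5 embryos 5 and 6), against 0.240, 2.50, 0.447 and 0.645 FPKM in mesoderm. Ctsh had 168, 113, 96.5 and 162 FPKM in endoderm, against 2.16, 14.9, 4.20 and 5.18 FPKM in mesoderm. In both genes mesoderm of E7.0 embryo 2 was the highest of the 4, and the endoderm values stood above it. The log2 differences were 2.88 ± 0.26 for Cubn (adjusted p = 0.000535) and 4.42 ± 0.33 for Ctsh (adjusted p = 0.000288).

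Lrp2, not called against epiblast, was higher against mesoderm. It had 1.52, 1.43, 0.947 and 3.34 FPKM in endoderm, against 0.0363, 0.172, 0.492 and 0.146 FPKM in mesoderm, with no overlap and a log2 difference of 0.82 ± 0.19 (adjusted p = 0.0151, 4 of 4 embryos). Asah1 likewise had 14.1, 12.6, 19.5 and 17.4 FPKM in endoderm, against 0.902, 3.86, 6.11 and 4.99 FPKM in mesoderm (1.82 ± 0.25, adjusted p = 0.00232). Of the proteases not called against epiblast, Ctsa (1.12 ± 0.21, adjusted p = 0.00778), Ctsd (0.79 ± 0.16, adjusted p = 0.00925) and Tpp1 (0.83 ± 0.13, adjusted p = 0.00319) were higher against mesoderm in 4 of 4 embryos. Gusb had 3.57, 4.68, 6.33 and 4.15 FPKM in endoderm, against 4.95, 9.64, 8.58 and 8.58 FPKM in mesoderm (-0.75 ± 0.15, adjusted p = 0.00918). The groups overlapped for Gusb, and its call ended without E7.5 embryo 6 (-0.64, adjusted p = 0.0548). Without E7.5 embryo 5 Ctsd (0.73, adjusted p = 0.0687) and Atp6v1h (0.85, adjusted p = 0.0599) were not called, and without E7.5 embryo 6 Man2b1 (0.41, adjusted p = 0.185) and Atp6v1h (0.71, adjusted p = 0.0852) were not. Under every alternative in which the gene was tested 15 calls were kept, among them the 4 uptake genes and 6 proteases. Parietal endoderm markers (9 of 9) and blood and decidua markers (5 of 6) were higher in endoderm here too, and their part in the members' values was not tested.

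Mesoderm was compared with P, the side of the epiblast where mesoderm forms, in the same 4 embryos. Of 31 members tested 2 were higher in mesoderm and 15 lower, beside 3.97% higher and 39.8% lower among the 9828 genes tested. Dab2 had 2.25, 16.4, 6.24 and 9.83 FPKM in mesoderm, against 1.90, 6.98, 4.65 and 3.43 FPKM in P (0.96 ± 0.20, adjusted p = 0.00986, 4 of 4 embryos). Ctsh was called at 0.84 ± 0.27 (adjusted p = 0.0416, 3 of 4 embryos), and not without E7.0 embryo 2 (0.47, adjusted p = 0.174) or E7.5 embryo 6 (0.55, adjusted p = 0.193). Among those lower were Ctsz (-0.81 ± 0.15, adjusted p = 0.00662), Mcoln1 (-0.71 ± 0.15, adjusted p = 0.00967) and Asah1 (-0.67 ± 0.10, adjusted p = 0.00396), each in 4 of 4 embryos. The median of the members (-0.28) was close to that of all genes (-0.24). At equal sums 2 were higher and 5 lower, and at equal medians 3 were higher and none lower, the share of higher genes among all called genes being 9.07%, 23.6% and 55.1% in these 3 scalings. The lower count fell to 6 without E7.5 embryo 5 and 9 without E7.5 embryo 6, and the higher count was 4 without E7.0 embryo 1 and 1 without E7.0 embryo 2 or E7.5 embryo 6. Visceral endoderm markers (9 of 17), parietal endoderm markers (6 of 8) and blood and decidua markers (4 of 6) were also higher in mesoderm than in P, and their part in the Dab2 and Ctsh values was not tested.

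Within the endoderm the members followed the proximal-distal axis. In each embryo a slope was fitted along the sections that held EA and EP, with the distal end set to 0 and the proximal end to 1, over 52 sections and 104 libraries of 6 embryos. Of the 33 members 28 rose towards the proximal end and none fell, beside 17.7% rising and 3.23% falling among the 10147 genes tested. The median slope was 2.04 over the members and 0.36 over all genes, in log2 units from end to end. At equal sums 28 members rose and at equal medians 24, with 0 falling in either. The median over all genes was then 0.38 and 0.06, and that of the members 2.27 and 1.68. The calls of Ctsd, Gla, Npc2 and Grn ended at equal medians. All 4 uptake genes, 9 of 9 proteases, 5 of 6 glycosidases, 5 of 6 membrane genes and 3 of 3 pump genes rose, and of the lipid genes 2 of 5.

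**Figure D3:**
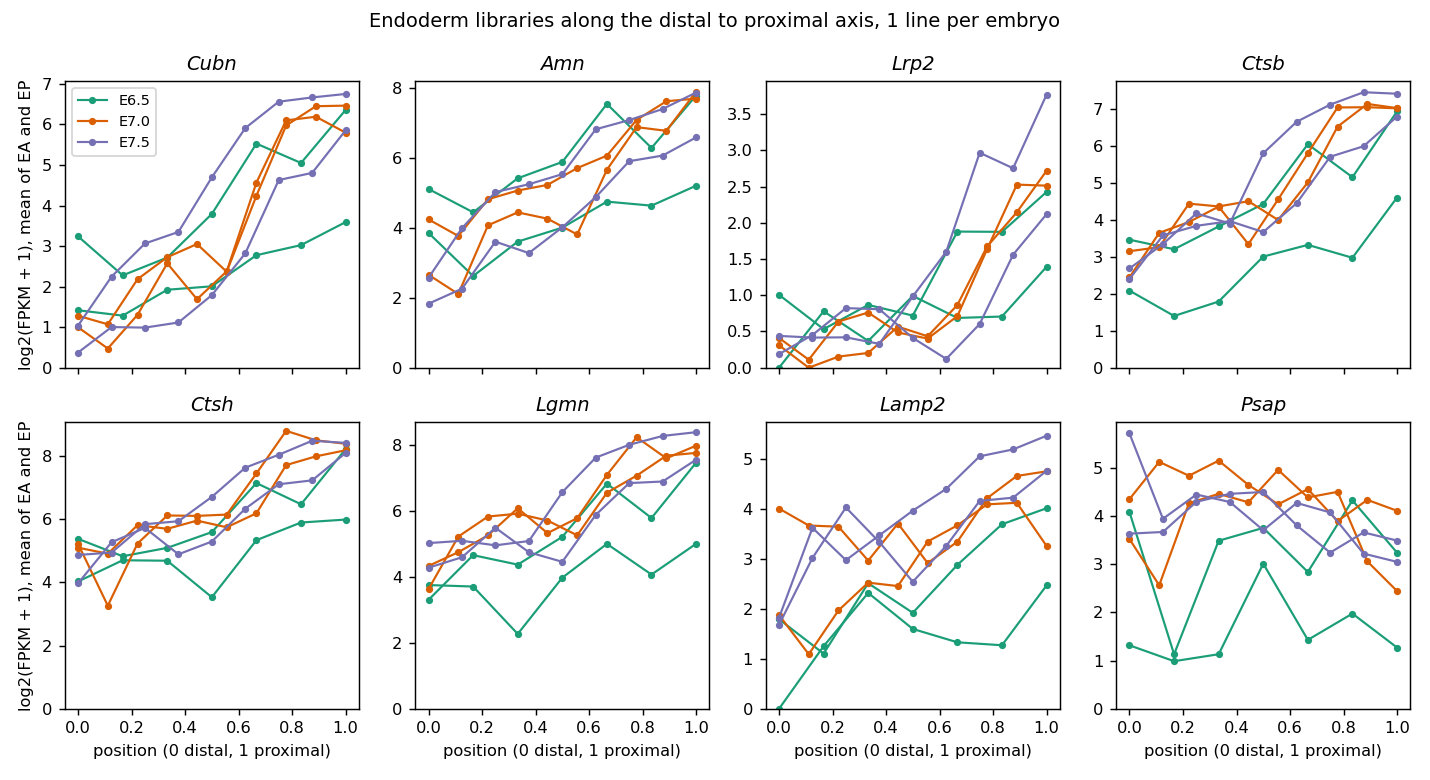
Endoderm log2(FPKM + 1), mean of EA and EP per section, for 8 members along the axis from the most distal (0) to the most proximal (1) section, 1 line per embryo, coloured by stage. Cubn, Amn, Lrp2, Ctsb, Ctsh, Lgmn and Lamp2 are higher at the proximal end in 6 of 6 embryos, while Psap is higher at the distal end.

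Cubn had 13.0, 69.6 and 107 FPKM as lowest, median and highest of the 6 embryos at the proximal end, against 0.303, 1.25 and 8.98 FPKM at the distal end. Its slope was 4.98 ± 0.46 (adjusted p = 4.17e-25), and its slopes in single embryos ran from 2.33 to 6.21. Amn had 41.3, 214 and 244 FPKM at the proximal end, against 2.57, 9.37 and 34.5 FPKM at the distal end (4.00 ± 0.47, adjusted p = 1.82e-15). Dab2 had 53.6, 167 and 188 FPKM at the proximal end, against 2.95, 14.9 and 16.7 FPKM at the distal end (3.97 ± 0.47, adjusted p = 3.39e-15). The ends did not overlap for any of the 3. Lrp2 rose with them, at 1.74, 4.61 and 12.6 FPKM at the proximal end against 0, 0.317 and 1.37 FPKM at the distal end (2.04 ± 0.29, adjusted p = 1.1e-10, 6 of 6 embryos). The ends of Lrp2 did not overlap either.

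Among the proteases Ctsb had 27.8, 129 and 173 FPKM at the proximal end, against 4.52, 7.04 and 11.0 FPKM at the distal end (4.02 ± 0.47, adjusted p = 1.14e-15). Ctsz had 70.3, 403 and 581 FPKM at the proximal end, against 4.15, 36.8 and 57.5 FPKM at the distal end (3.61 ± 0.47, adjusted p = 2.08e-12). Ctsl reached 1157 FPKM at the proximal end of 1 embryo, with a median of 644 there against 68.9 at the distal end (3.14 ± 0.48, adjusted p = 2.52e-09). Each of the 9 proteases rose in 6 of 6 embryos. Ctsa (3.23 ± 0.46, adjusted p = 1.28e-10) and Tpp1 (2.23 ± 0.45, adjusted p = 1.24e-05), not called between endoderm and epiblast, rose along the axis as well. Hexa, the alpha chain of hexosaminidase, had 6.86, 44.2 and 63.8 FPKM at the proximal end, against 0, 2.68 and 21.7 FPKM at the distal end (3.29 ± 0.46, adjusted p = 4.73e-11). Neu1 had 6.96, 20.0 and 26.2 FPKM proximally, against 0.283, 1.06 and 3.37 FPKM distally (2.90 ± 0.41, adjusted p = 1.19e-10). Mcoln1 likewise had no overlap between the ends (2.21 ± 0.42, adjusted p = 3.7e-06).

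The 5 members without a call along the axis were Gusb (0.24), Lipa (0.83), Asah1 (0.65), Scarb2 (-0.36) and Psap (-0.36). Psap had 1.49, 8.74 and 16.3 FPKM at the proximal end, against 1.90, 14.1 and 120.0 FPKM at the distal end, the last in E7.5 embryo 5, and the distal end was the higher in 6 of 6 embryos although only 4 of 6 slopes were negative. Without E7.5 embryo 6 the count of rising members was 17 and with EA alone 20. The 11 calls lost there were those of Ctsd, Gla, Glb1, Man2b1, Npc2, Lamp1, Cd63, Grn, Atp6v0d1, Atp6v1h and Atp6ap1, while the other 17 held under every alternative in which the gene was tested, the 4 uptake genes and 8 proteases among them. Between the sides of the endoderm, EP minus EA, limma called 0 of 33 members, beside 0.887% higher and 0.611% lower among 10147 genes. The members' median was 0.27 and 28 of 33 differences were above 0, against a median of 0.06 and 61.6% above 0 over all genes. At an unadjusted p under 0.05 there were 11 members, all higher in EP, beside 8.43% higher and 4.25% lower of all genes. The share of higher genes among all called genes was 59.2%, and 45.6% at equal sums and 38.5% at equal medians. Without E6.5 embryo 6 the count was 7 and without E6.5 embryo 5 it was 4.

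Other genes varied along the same axis. Of the 20 visceral endoderm markers 19 rose and 1 fell, Ttr by 6.86 ± 0.48 and Apoa1 by 6.59 ± 0.48. Of 10 definitive endoderm markers 1 rose and 3 fell, of 9 parietal endoderm markers 7 fell, and of 6 blood and decidua markers 5 fell. Most visceral endoderm markers rose like the members, and most parietal endoderm and blood markers fell. The part of the mix of endoderm types, and of blood and decidua, in the members' slopes was not tested.

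P was compared with A section by section in 16 embryos, 81 sections and 162 libraries, over 11438 genes. The member that differed at 3 successive stages was Lrp2, which was lower in P. At E6.5, 1 of 33 members was called (Lrp2), beside 0.586% higher and 0.140% lower among all genes; at E7.0, 2 were lower (1.63% and 1.29%), and at E7.5, 1 was higher and 1 lower (10.4% and 3.44%). Lrp2 had 0.124, 0.0398, 0.116 and 0.170 FPKM in P at E7.5 (embryos 3, 4, 5 and 6), against 3.77, 1.59, 3.16 and 4.39 FPKM in A. The groups were far apart, and the log2 difference was -1.74 ± 0.16 (adjusted p = 5.75e-07, lower in 4 of 4). At E7.0 Lrp2 had 0.129 and 0.159 FPKM in P (embryos 1 and 2), against 1.81 and 1.98 FPKM in A. The log2 difference was -1.25 ± 0.23 (adjusted p = 0.00445, lower in 2 of 2), and the call ended without embryo 1 (-1.20, adjusted p = 0.122) or embryo 2 (-1.30, adjusted p = 0.0622). At E6.5 the lowest, median and highest embryo had 0.800, 1.59 and 2.40 FPKM in P, against 1.60, 3.44 and 3.95 FPKM in A, so the groups overlapped. The log2 difference was -0.61 ± 0.13 (adjusted p = 0.0373), lower in 6 of 6 embryos, with values of -0.55 to -0.66 on leaving out any of these, each with an adjusted p of 0.0522 or more. The E6.5 call also ended without E7.5 embryo 3 (adjusted p = 0.0578) or 5 (adjusted p = 0.0507), since all stages enter 1 fit, and at equal sums or equal medians. At E5.5 (-0.16, adjusted p = 0.708) and E6.0 (-0.20, adjusted p = 0.779) it was not called.

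**Figure D4:**
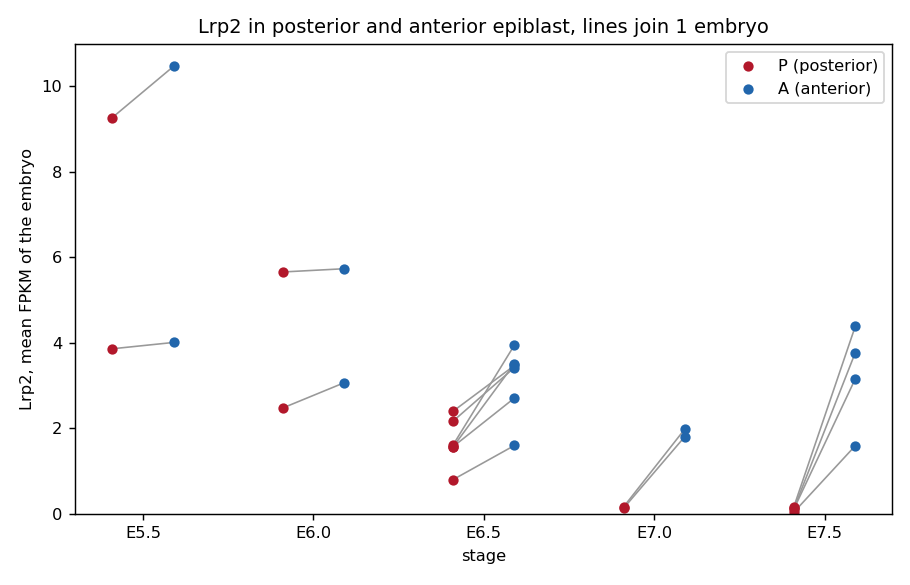
Lrp2 in P (left of each pair) and A (right) at the 5 stages, as mean FPKM of the embryo over its sections with both regions; lines join 1 embryo. At E5.5 the embryos have 3.86 and 9.27 FPKM in P, against 4.01 and 10.5 FPKM in A, while at E7.0 and E7.5 every P point is at or under 0.170 FPKM with every A point at or above 1.59 FPKM.

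The other calls between P and A were few. At E5.5, 5 members were higher in P (Grn, Psap, Lgmn, Man2b1 and Atp6v0d1) and 1 lower (Npc2), beside 12.5% higher and 2.62% lower among all genes. The higher count was close to the share of all genes, and the median difference was 0.18 over the members and 0.17 over all genes. Grn had 10.0 and 16.4 FPKM in P, against 6.75 and 10.1 FPKM in A (1.31 ± 0.24, adjusted p = 0.00174), and Npc2 had 9.26 and 20.0 FPKM in P, against 17.7 and 23.9 FPKM in A (-1.05 ± 0.20, adjusted p = 0.00188). Without E5.5 embryo 2 Man2b1 (0.42) and Psap (0.67) were not called. Without the 3 poor E5.5 libraries Grn (0.85, adjusted p = 0.0595) and Lgmn (0.83, adjusted p = 0.0517) were not called. Of all called genes 82.7% were higher in P at E5.5 and 75.2% at E7.5, against 69.1% and 55.7% at equal sums and 50.2% and 54.7% at equal medians. Epiblast libraries of E5.5 held between 3582 and 7644 genes at 1 FPKM or more. At E6.0 limma called 0 of 33 and 0% of all genes in either direction, and 1 member had an unadjusted p under 0.05. At E7.0 Asah1 had 1.99 and 8.27 FPKM in P, against 8.56 and 22.3 FPKM in A (-1.71 ± 0.39, adjusted p = 0.0192), a call that ended without embryo 1 (-1.22) or embryo 2 (-2.20, adjusted p = 0.055). At E7.5 Lgmn had 19.9, 5.11, 9.61 and 11.7 FPKM in P, against 10.2, 2.63, 7.25 and 8.79 FPKM in A, higher in 4 of 4 (0.55 ± 0.17, adjusted p = 0.0422), a call lost on leaving out any 1 of these 4 embryos (0.46 to 0.64). Leaving out embryos of other stages, which share the spread, gave between 1 and 6 members at E7.5.

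Levels of A were followed across stages after rescaling each library to a sum of 1000000. Of the uptake genes Cubn, Amn and Dab2 were lower at E6.5 than before, and Lrp2 was not called. At E6.5, 6 of 33 members were lower and 3 higher than the mean of E5.5 and E6.0, beside 12.3% higher and 1.08% lower among 14065 genes, with a median of -0.03 over the members and 0.32 over all genes. Cubn had rescaled FPKM of 0.0887, 0.339 and 1.11 in the lowest, median and highest of 6 embryos at E6.5, against 12.2 and 14.5 at E5.5 and 2.69 and 0.480 at E6.0 (-1.74 ± 0.24, adjusted p = 0.000109). Amn had 1.14, 1.60 and 4.29 at E6.5, against 36.8 and 44.7 at E5.5 and 21.2 and 2.09 at E6.0 (-2.43 ± 0.43, adjusted p = 0.00103). For both genes E5.5 embryos stood above every E6.5 embryo, and E6.0 embryo 2 fell within the E6.5 range. Ctsh (-2.56 ± 0.47, adjusted p = 0.00137) and Dab2 (-2.19 ± 0.40, adjusted p = 0.00119) were lower in the same way, as were Ctsc (-1.43 ± 0.43, adjusted p = 0.0319) and Ctsl (-0.93 ± 0.29, adjusted p = 0.0378). Ctsc and Ctsl each lost the call in 6 of the settings that left out 1 embryo of E5.5 to E6.5.

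**Figure D5:**
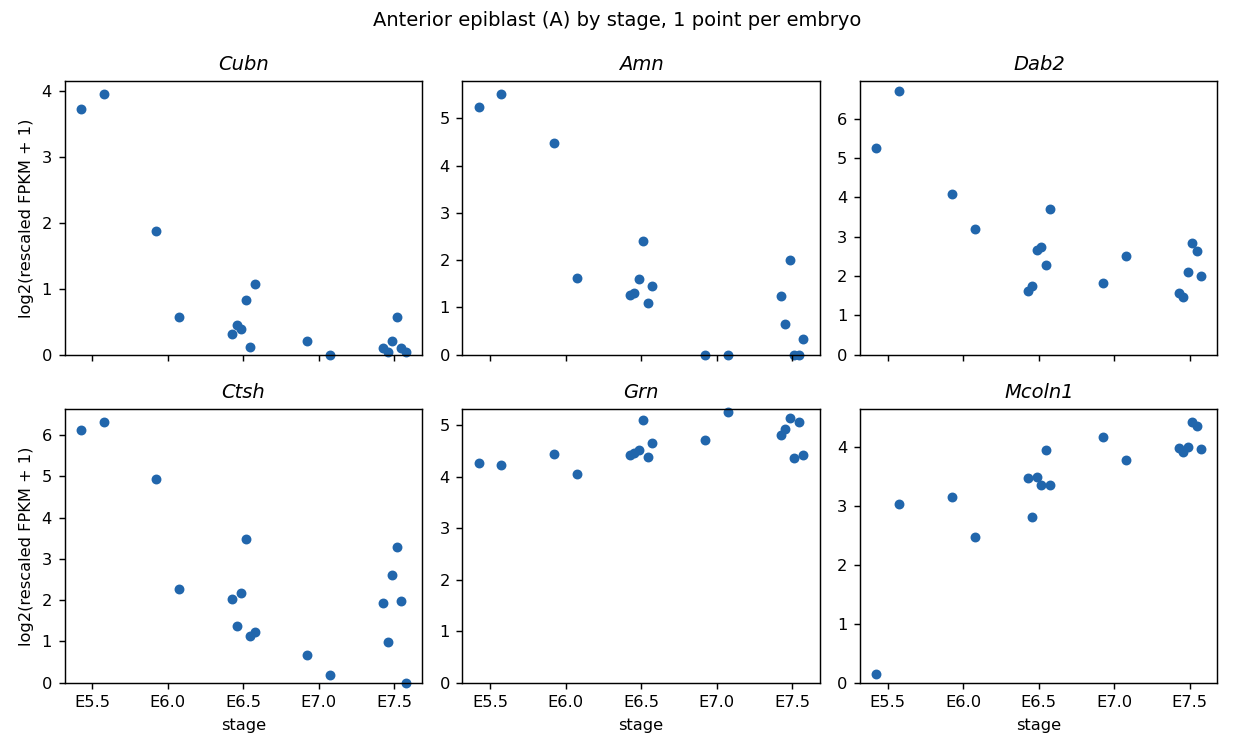
Level of 6 members in A at each stage, as log2 of the rescaled FPKM + 1; each point is 1 embryo. Cubn, Amn, Dab2 and Ctsh are highest in the 2 embryos of E5.5, while 1 of these, at 0.107 rescaled FPKM, is the lowest for Mcoln1.

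Visceral endoderm markers moved with these genes in A: their summed FPKM as deposited was 82.8 to 581 in the 6 embryos of E6.5, against 1599 and 392 in those of E6.0 and 1345 and 1939 in those of E5.5, and 14 of 20 were lower at E6.5. On FPKM as deposited the level of several genes also went with whether endoderm had been cut separately from the same embryo. In epiblast (A and P) of E6.5, Amn had 0.291 and 0.685 FPKM in the 2 embryos with EA and EP libraries, against 1.05 to 2.20 FPKM in the 4 without. Ctsh had 0.498 and 0.541 against 2.11 to 3.49 FPKM, and the visceral endoderm marker Apoa1 1.86 and 4.43 against 18.6 to 27.9 FPKM. Dab2 did not follow, at 1.32 and 5.24 against 1.90 to 3.02 FPKM. Some members not higher in endoderm, though not all, were lower in the same 2 embryos. Among them Ctsd had 15.7 and 31.7 against 42.6 to 55.9 FPKM, and Grn 5.94 and 12.1 against 14.2 to 18.6 FPKM. In A after rescaling, Amn (1.14 and 1.74 against 1.39 to 4.29) and Cubn (0.0887 and 1.11 against 0.242 to 0.783) overlapped. Ctsh stayed lower there (1.19 and 1.35 against 1.60 to 10.2). E6.0 embryo 2, the lower of the E6.0 embryos for Cubn and Amn, is the one with VE libraries. The part of endoderm RNA in the levels of Cubn, Amn, Dab2, Ctsh, Ctsc and Ctsl was not tested. The 3 members that rose were Gla (1.46 ± 0.42, adjusted p = 0.0262), Mcoln1 (1.44 ± 0.34, adjusted p = 0.00719) and Grn (1.01 ± 0.27, adjusted p = 0.0174). Gla had 4.63 to 14.8 rescaled FPKM at E6.5, against 0.793 and 0.0659 at E5.5 and 6.94 and 10.6 at E6.0, and its call ended without any 1 of E5.5 embryo 2 (1.34), E6.0 embryo 1 (1.28), E6.5 embryo 4 (1.41) or E6.5 embryo 5 (1.30). The Grn call ended without E6.0 embryo 2 (0.84, adjusted p = 0.0904). On FPKM as deposited 4 were lower and none higher, and 72.5% of all called genes were higher, against 92.0% after rescaling to equal sums. From E6.5 to E7.5 in A, 1 of 33 passed, beside 1.39% higher and 0.683% lower among all genes (67.0% of those called were higher, and 47.1% with FPKM as deposited). Npc2 had 60.9, 67.9 and 78.0 rescaled FPKM at E7.5, against 30.5, 39.1 and 44.7 at E6.5, with no overlap (0.87 ± 0.20, adjusted p = 0.0201), although the call ended without E6.5 embryo 2 (0.84), E7.5 embryo 3 (0.85) or E7.5 embryo 5 (0.83). Lrp2 was not called in either step (-0.85, adjusted p = 0.075; 0.34, adjusted p = 0.733).

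Along the epiblast of E6.5, in 37 sections of 6 embryos, limma called none of 32 members, beside 2.11% rising and 0.189% falling among 9541 genes. Without E6.5 embryo 1 the count was 9, for which no share of all genes is given here. With all 6 embryos it was 9 as well at an unadjusted p under 0.05, beside 24.2% of all genes rising at that p. The median slope was 0.27 over the members and 0.26 over all genes. Of all called genes 91.8% rose, and 75.0% did at equal sums.

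The VE libraries of E6.0 came from 1 embryo and have no replicate. On the mean of its 4 sections 7 members stood more than 1 log2 unit above the epiblast and 9 more than 1 below, beside 2.85% above and 65.9% below among 9273 genes. Of these 7, Lgmn and Ctsc were higher in 3 of 4 sections and lower in section 1 (-1.48 and -0.61). The median was -0.27 over the members and -1.39 over all genes. Ctsh averaged 53.4 FPKM in VE and 6.42 FPKM in epiblast, Amn 32.8 and 4.38 FPKM, and Dab2 31.8 and 4.57 FPKM, each higher in 4 of 4 sections. The epiblast of section 1 is the single A/P library at the tip, and without that section Ctsh averaged 48.1 FPKM in VE and 2.88 FPKM in epiblast and Dab2 30.7 and 2.97 FPKM. Amn then had 15.8 to 50.2 FPKM in the VE sections and a mean of 1.67 FPKM in epiblast. Lrp2 averaged 0.426 FPKM in VE and 5.79 FPKM in epiblast and was lower in 4 of 4, and Gusb averaged 0.249 and 7.36 FPKM. At E7.5 embryo 4 carries codes E1, E2, M1 and M2 that the labels do not spell out. E1 and E2 minus M1 and M2 over 9 sections gave 10 members past 1 above and 0 below, beside 3.40% and 2.04% of 7460 genes. Amn averaged 19.1 FPKM in E1 and E2 and 0.301 FPKM in M1 and M2, and Ctsh 35.5 and 0.357 FPKM.

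Other genes of the same pathways, taken from lists by name, were counted between endoderm and epiblast. Among all 10332 genes tested 10.6% were higher and 58.2% lower. Of 24 other lysosomal enzymes tested 12 were higher and 1 lower, with Scpep1 at 17.9 ± 8.68 FPKM in endoderm and 4.02 ± 1.08 in epiblast (SD, n = 6 each) and Manba, the beta-mannosidase, at 3.39 ± 2.24 and 0.436 ± 0.112. Of 17 other membrane and sorting genes 4 were higher and 7 lower, with the mannose 6-phosphate receptor gene M6pr at 19.9 ± 7.97 FPKM in endoderm and 34.7 ± 10.6 in epiblast. Of 15 other proton pump subunits 3 were higher and 8 lower, with Atp6v0c at 38.0 ± 20.4 and 57.6 ± 27.1 FPKM, and Atp6v0a1 higher at 4.53 ± 2.33 and 1.54 ± 0.914 FPKM. The lower counts of the sorting genes and of the pump subunits were not above the share of all genes. Along the endoderm axis no gene of these 3 lists fell, and 19 of 24 enzymes, 12 of 17 membrane and sorting genes and 12 of 14 pump subunits rose. Of all genes tested along it 17.7% rose and 3.23% fell.

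Of 7 other endocytic receptors and chaperones 3 were higher and 3 lower. The shares of all genes in this comparison, endoderm minus epiblast, were 10.6% higher and 58.2% lower. Lrpap1, the chaperone of megalin and its relatives, had 65.9 ± 32.8 FPKM in endoderm and 14.1 ± 6.04 in epiblast (2.03 ± 0.18, adjusted p = 3.95e-09), while the transferrin receptor Tfrc (7.03 ± 5.21 FPKM in endoderm and 12.5 ± 4.55 in epiblast) was lower. Of 26 genes of clathrin, AP-2 and endosomes 8 were higher and 6 lower, with the recycling GTPase Rab4a higher (28.6 ± 9.07 and 7.46 ± 1.54 FPKM) and the late endosomal Rab7 lower (9.93 ± 5.30 and 18.2 ± 4.19 FPKM). Of 15 TFEB-family and lysosomal mTORC1 genes 4 were higher (Tfeb, Tfec, Rragc and Slc38a9) and 9 lower, with Tfe3 at 3.92 ± 2.23 FPKM in endoderm and 9.39 ± 4.81 in epiblast (-1.14 ± 0.15, adjusted p = 9.99e-07). The lower count of this list was close to the share of all genes.

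By GENCODE vM21, 10 members overlap another protein-coding gene on the genome (Ctsa, Ctsb, Ctsd, Ctsz, Hexa, Glb1, Npc1, Lamp1, Grn and Atp6v1h). Whether reads were assigned by strand is not given in the sources used here, so part of their values may come from the neighbour. Replicates are separate embryos per the labels, and with 2 embryos per stage the fitted spread is shared between stages.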

How the data were processed

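The deposited FPKM (fragments per kilobase of transcript, scaled to the library) come from the authors; per the submitters' processing notes TopHat2 2.0.8b, Cufflinks 2.1.1 and mm10 were used. The annotation, and whether reads were assigned by strand, are not given in the sources used here. FPKM are not counts, so no count test was run, and depth is known only roughly. In 18 tables with 584 columns, 473 columns matched 1 sample's labels; the other 111 were not used, and 113 of 586 samples were not analysed here. E6.5 embryo 6 was taken from a table whose name says E6.0, because the sample labels say E6.5. No libraries were identical.

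From these, regions were subtracted within a section on log2(FPKM + 1), averaged per embryo, and tested with limma 3.58.1 (R 4.3.3; empirical Bayes with trend and robust settings) across all genes with a mean of at least 1 FPKM in some stage, stages weighted equally. Levels of A across stages were taken from libraries rescaled to a sum of 1000000. P-values were Benjamini-Hochberg adjusted over all genes tested, with a threshold of 0.05. The embryo is the replicate and the block, since regions of 1 embryo come from the same animal: deviations from the stage mean correlated within embryos at 0.517 (E6.5), 0.591 (E7.0) and 0.575 (E7.5). Only the limma fit was run on simulated embryo values with planted differences, and the steps before it were not simulated. Python 3.11.15, pandas 2.3.3, numpy 2.4.6 and matplotlib 3.10.9 were used.

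The members and all lists of genes and markers were chosen with earlier results of these data known. All 33 members are named, and of each of the 14 further lists up to 4 genes with the smallest p between endoderm and epiblast. Alternatives were other pseudocounts, filters and scalings, no block, other empirical Bayes settings, libraries, sections, regions or embryos left out.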

Additional observations from a re-analysis of the deposited data

Results flagged for a closer look

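The highest or lowest of 6 embryos stood apart from its neighbours in 7 of 69 groups of embryo levels examined, where chance gives about 1 in 20 for a single group. The groups share the same embryos and are not independent, so the count cannot be tested against that rate. Of the 7, 5 were the highest A level at E6.5 in rescaled FPKM. In embryo 4 Amn had 4.29 (the next embryo 2.02), Ctsd 108 (67.1), Ctsh 10.2 (3.54) and Grn 33.4 (24.0), and in embryo 6 Dab2 had 11.9 (5.71). Scarb2 was lowest in E6.5 embryo 1, at 0.418 against 1.84 in the next. Cubn in A at E7.5 was highest in embryo 4, at 0.494 against 0.151 in the next.

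The difference between endoderm and epiblast changed with stage, by limma's test of E7.5 minus E6.5, for Ctsd (1.64), Tpp1 (1.23), Glb1 (1.12), Scarb2 (0.93), Grn (1.26), Atp6v1h (1.52) and Atp6ap1 (1.44), all in log2 units. Each rests on 2 embryos per stage. In the same test 36.7% of all genes went up, no member passed at equal sums, and Ctsd was at -0.22 at equal sums without poor libraries.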

How the results depend on the processing

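In endoderm minus epiblast 17 members were higher and 5 lower. Without the replicate block 11 were higher, and the same count held without the most proximal section used. The lower count was 2 without the replicate block, 2 without both E6.5 embryos on either scaling, and 3 at a mean of at least 5 FPKM, at equal medians and at equal sums without poor libraries. The sign of members that were not called turned for Lrp2 (0.027 at equal medians, 0.52 with P alone in all sections, 0.46 with P alone in the same sections, 0.26 at equal sums without poor libraries), Ctsd (0.24, 0.039, 0.23, 0.34 and 0.41 at equal medians, without poor libraries, without both E6.5 embryos, the same at equal sums, and equal sums without poor libraries), Tpp1 (0.26, 0.098, 0.21, 0.21 and 0.40 in the same order), Mcoln1 (0.28, 0.21, 0.12, 0.048 and 0.49) and Man2b1 (0.16, 0.032, 0.099 and 0.13, without poor libraries aside). Without the most proximal section used it turned for Ctsa (-0.45), Hexa (-0.26), Npc2 (-0.073), Atp6v1h (-0.059) and Atp6ap1 (-0.043). With P alone in the same sections it turned for Hexa (-0.0014) and Mcoln1 (0.045), and with P alone in all sections with EA, EP and P for Npc2 (-0.0036), Atp6v1h (-0.061) and Atp6ap1 (-0.027), and at a pseudocount of 0.1 for Atp6v1h (-0.075) and Atp6ap1 (-0.063). Leaving out 1 embryo turned the sign in some fits for Atp6ap1 (-0.12 to 0.30), Atp6v1h (-0.098 to 0.31), Npc2 (-0.024 to 0.26), Mcoln1 (-0.21 to 0.056) and Tpp1 (-0.32 to 0.014), and against mesoderm for Psap (-0.082 to 0.28) and Scarb2 (-0.0026 to 0.18). The causes were not tested.

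The change with stage passed in 7 members. It did in 13 at a pseudocount of 0.1, 4 with P alone in the same sections and 3 without poor libraries. It passed in 1 with no filter, at equal medians and without the most proximal section used. The count was 0 at equal sums, at equal sums without poor libraries (Ctsd -0.22) and without the replicate block. Endoderm minus mesoderm without the replicate block gave 15 higher and 0 lower. Mesoderm minus P gave 1 higher with no filter, at a mean of at least 5 FPKM or with plain empirical Bayes, 5 lower at equal sums, 0 lower at equal medians (Ctsl 0.081, Gusb 0.021), and 0 of either without the replicate block. P minus A without the replicate block gave 0 at E5.5, E6.5 and E7.0 and 1 at E7.5. The E6.5 count was 0 at a pseudocount of 0.1, no filter, a mean of at least 5 FPKM, equal sums, equal medians and without the E6.5 embryos that have endoderm libraries; the E7.0 count was 1 at a mean of at least 5 FPKM; the E7.5 count was 1 at no filter, a mean of at least 5 FPKM, equal sums, equal medians, without poor libraries and without those E6.5 embryos. Along the endoderm Gusb had -0.35 with EP alone, -0.11 without both E6.5 embryos and -0.16 to 0.64 on leaving out 1 embryo, and Psap 0.067 with EA alone. In A at E6.5 the higher count was 6 at a pseudocount of 0.1 and 0 with FPKM as deposited; at E7.5 the count was 2 at a mean of at least 5 FPKM and 0 with FPKM as deposited and at equal medians.

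Leaving out 1 embryo at a time gave 15 to 18 higher and 4 to 5 lower in endoderm minus epiblast, 2 to 8 for its change with stage, 24 to 28 higher and 0 to 1 lower against mesoderm, 1 to 4 higher and 6 to 17 lower in mesoderm minus P, and 0 to 7 in EP minus EA. In P minus A it gave 6 to 12 at E5.5, 0 to 1 at E6.5, 0 to 2 at E7.0 and 1 to 6 at E7.5, along the endoderm 17 to 28, along the epiblast 0 to 9, and in A 2 to 3 higher and 4 to 6 lower at E6.5 and 0 to 2 at E7.5. Leaving out both E6.5 embryos, on either scaling and along the endoderm, taking P alone in the same sections, and combining equal sums with leaving out poor libraries were chosen after seeing the data. Few embryos per stage and poor E6.5 endoderm libraries are among the limits on precision.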

Other observations

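For the single library at the distal tip (section 1, coded A/P), members above every A and P library of the same embryo were counted. Their number differed between embryos, and so did the share of all genes. It was 15 and 17 of 33 members in the embryos of E5.5, 0 and 9 in those of E6.0, and 24, 1, 14, 1, 19 and 0 in E6.5 embryos 1 to 6. Of all genes at a mean of 1 FPKM or more the share above every A and P library was 7.93% and 7.71% at E5.5, 10.3% and 9.43% at E6.0, and 23.1%, 2.00%, 15.1%, 2.31%, 54.8% and 0.420% at E6.5. In E6.5 embryos 2, 4, 5 and 6 the count of members was near the share of all genes. The epiblast marker Pou5f1 was above them too in E6.5 embryos 3 (364 FPKM at the tip, against a highest of 325) and 5 (227 against 223). The visceral endoderm markers summed to 8276 and 8758 FPKM in the tip libraries of E5.5, against an embryo mean of 1257 to 1836 FPKM in its A and P libraries.

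Against mesoderm the further lists gave 17 higher and 0 lower of 22 other lysosomal enzymes in endoderm, 5 and 2 of 17 membrane and sorting genes, 6 and 0 of 14 pump subunits, 4 and 0 of 6 receptors and chaperones, 9 and 1 of 26 clathrin and endosome genes, and 4 and 1 of 15 TFEB and mTORC1 genes. Among all genes tested there 14.5% were higher and 24.9% lower. Against epiblast, streak and mesoderm markers gave 3 higher and 5 lower of 11, and extra-embryonic ectoderm markers 2 higher and 0 lower of 5. The shares of all genes against epiblast were 10.6% higher and 58.2% lower.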
